A study of Homo sapiens with 10 samples.

Results

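Chromatin immunoprecipitation with sequencing (ChIP-seq) peaks were examined at the loci of 9 surfactant and secretory genes of lung epithelium: SFTPB, SFTPC, SFTPA1, SFTPA2, SFTPD, SCGB1A1, SCGB3A2, NAPSA and ABCA3. The genes were taken as 8 fixed windows of the hg18 genome build, since SFTPA1 and SFTPA2 share 1 window. Members were all called peaks that share at least 1 bp with a window. They numbered 38 of the 79601 peaks in the 7 called lists of the series.

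The lists came from 2 human lung adenocarcinoma cell lines. In H441 cells, labelled TTF-1 positive, Smad3 and Smad4 were each mapped after depletion of TTF-1 by siRNA (siTTF-1) and after a control siRNA (siControl), and TTF-1 (NKX2-1) was mapped at 1.5 h and at 0 h in cells whose titles name no siRNA. In A549 cells, labelled TTF-1 negative, Smad3 was mapped. The treatment stated for all samples was 1 ng/ml TGF-β3 for 1.5 h, and only the title sets the 0 h library apart. Whether that library was taken before the treatment is not stated, and the 2 labels are not reconciled. Each condition had 1 library, and 3 input DNA libraries served as background for peak calling. No difference between conditions could therefore be tested or set against replicate spread, and the residual TTF-1 after depletion is not in the peak lists. The lists hold 14145 peaks for Smad3 siTTF-1, 8941 for Smad3 siControl, 21291 for TTF-1 1.5 h and 31083 for TTF-1 0 h, all at a false discovery rate limit of 1%. The limit was 10% for Smad4, with 1605 peaks after siTTF-1 and 1 peak after siControl, and 5% for the 2535 peaks of A549 Smad3. The peak lists hold no RNA measurement, so the expression of these genes in the cells used was not assessed.

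Pulmonary surfactant is made by alveolar type II cells and lowers surface tension in the alveoli. Its hydrophobic proteins SP-B (SFTPB) and SP-C (SFTPC) spread and stabilise the lipid film, and its collectins SP-A (SFTPA1 and SFTPA2) and SP-D (SFTPD) bind microbial sugars. ABCA3 pumps lipids into lamellar bodies, the storage organelles of surfactant, and napsin A (NAPSA) is an aspartic protease that takes part in the processing of SP-B. SCGB1A1 and SCGB3A2 are small secreted proteins of airway club cells. TTF-1 is the homeodomain factor that directs lung epithelial identity and is known to activate surfactant and secretoglobin promoters. Smad3 and Smad4 carry the TGF-β signal to DNA.

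The RefSeq promoter table (GRCh38.p14) held 10 promoters of 7 of the 9 genes, each with 250 bases before and 50 after a transcript start; SFTPC and SCGB1A1 were not matched. The promoters of SFTPB, SFTPA1, SFTPA2, SFTPD, SCGB3A2 and NAPSA are shown, with 1 start each, because TTF-1 was called in their windows and each holds a match to a searched motif. The peaks are on hg18, so promoter and peak positions cannot be set side by side. Capitals mark matches on either strand to CTCAAG and CAAGTG, sequences that contain the CAAG core of NKX2 homeodomain sites, and to TGANTCA, the AP-1 site.
SFTPB (chr2:85668150-85668449, minus strand): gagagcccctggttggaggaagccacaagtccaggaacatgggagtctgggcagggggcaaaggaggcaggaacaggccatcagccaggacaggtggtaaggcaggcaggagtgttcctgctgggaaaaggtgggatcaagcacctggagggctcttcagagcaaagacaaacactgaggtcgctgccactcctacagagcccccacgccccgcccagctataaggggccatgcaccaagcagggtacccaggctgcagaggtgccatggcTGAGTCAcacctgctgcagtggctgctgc
SFTPA1 (chr10:79610689-79610988, plus strand): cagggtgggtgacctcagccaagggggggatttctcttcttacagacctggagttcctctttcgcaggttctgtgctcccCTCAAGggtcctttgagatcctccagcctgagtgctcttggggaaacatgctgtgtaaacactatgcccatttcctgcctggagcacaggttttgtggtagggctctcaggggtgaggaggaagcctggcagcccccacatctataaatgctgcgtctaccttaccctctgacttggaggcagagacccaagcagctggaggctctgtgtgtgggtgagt
SFTPA2 (chr10:79560358-79560657, minus strand): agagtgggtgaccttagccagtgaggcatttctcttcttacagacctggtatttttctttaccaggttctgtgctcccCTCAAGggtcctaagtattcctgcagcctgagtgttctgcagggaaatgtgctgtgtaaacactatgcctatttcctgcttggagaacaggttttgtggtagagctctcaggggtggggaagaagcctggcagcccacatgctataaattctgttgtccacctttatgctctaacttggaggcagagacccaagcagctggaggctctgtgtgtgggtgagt
SFTPD (chr10:79949056-79949355, minus strand): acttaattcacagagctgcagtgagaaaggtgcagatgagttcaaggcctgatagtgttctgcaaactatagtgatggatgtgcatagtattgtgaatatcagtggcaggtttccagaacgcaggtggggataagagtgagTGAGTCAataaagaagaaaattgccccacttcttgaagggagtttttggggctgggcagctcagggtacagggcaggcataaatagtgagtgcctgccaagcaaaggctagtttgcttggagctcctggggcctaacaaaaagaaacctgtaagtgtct
SCGB3A2 (chr5:147878461-147878760, plus strand): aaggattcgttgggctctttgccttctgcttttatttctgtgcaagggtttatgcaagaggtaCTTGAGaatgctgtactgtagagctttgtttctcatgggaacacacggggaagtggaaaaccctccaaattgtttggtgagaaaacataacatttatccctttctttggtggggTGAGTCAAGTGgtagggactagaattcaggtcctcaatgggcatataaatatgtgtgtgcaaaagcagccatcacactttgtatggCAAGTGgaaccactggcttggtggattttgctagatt
NAPSA (chr19:50369253-50369552, minus strand): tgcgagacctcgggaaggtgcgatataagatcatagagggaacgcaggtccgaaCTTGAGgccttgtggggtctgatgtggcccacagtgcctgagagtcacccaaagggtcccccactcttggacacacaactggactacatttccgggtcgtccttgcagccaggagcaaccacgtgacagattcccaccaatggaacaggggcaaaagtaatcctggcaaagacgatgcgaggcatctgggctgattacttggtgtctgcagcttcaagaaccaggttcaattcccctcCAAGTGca

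CTCAAG or CAAGTG was found in 4 of the 10 promoters, those of SFTPA1, SCGB3A2, and 1 start each of SFTPA2 and NAPSA, against 21.7% of all 35116 promoters in the table. SCGB3A2 had CAAGTG at 2 places, with first bases at -68 and 14 from the transcript start, and CTCAAG on the other strand at -187. The SFTPA1 and SFTPA2 promoters shown each had CTCAAG on the plus strand of the printed sequence, at -170 in SFTPA1 and -172 in SFTPA2. They were identical at 262 of 304 aligned positions (86.2%). How the authors treated reads that fit more than 1 such copy is not stated in the labels or files, so peaks in the window of these genes are uncertain.

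TGANTCA was found in 5 of the 10 promoters, against 7.71% of all promoters. The 5 belonged to 4 genes: both starts of SFTPB, 1 start of SFTPA2, SFTPD and SCGB3A2. In SCGB3A2 the match at -73 overlaps the CAAGTG at -68. The CAAG core alone was in 10 of the 10 promoters and in 86.0% of all promoters. The 4-base Smad sequences GTCT and CAGA were in 8 and 10 of the 10, against 84.0% and 93.3% of all promoters, so these shares stood near the background. A match describes letters in these windows and not a bound site.

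TTF-1 was the factor called at most of these loci. At 1.5 h, 12 peaks lay in 5 of the 8 windows, and at 0 h, 18 peaks lay in 7 of the 8. Smad3 had 3 peaks in 2 windows (SFTPB and SFTPC) after siTTF-1, against 4 peaks in 3 windows (SFTPB, SFTPC and NAPSA) after siControl. Smad4 had 1 peak, in the SCGB3A2 window of siTTF-1 cells, and none in siControl cells. The whole Smad4 siControl list holds 1 peak, so its absence here is no contrast between the siRNAs. A549 Smad3 had no peak in any window. The SCGB1A1 window was empty in all 7 lists.

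**Figure D1:**
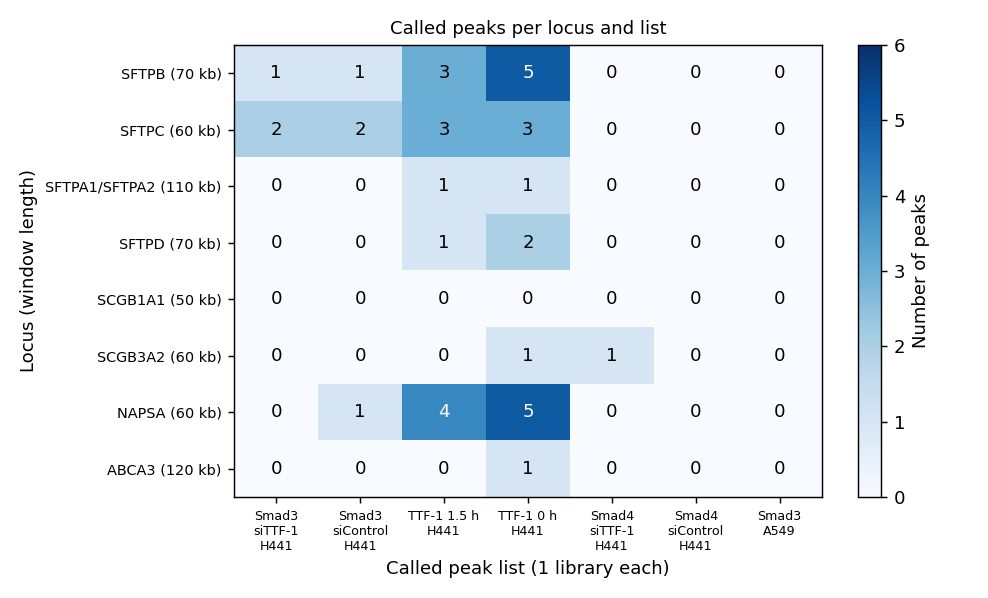
Number of called peaks for each locus (rows, with window length in kb) and each list (columns, 1 library each), with darker cells for more peaks. TTF-1 has 3 to 5 peaks per list at SFTPB, SFTPC and NAPSA and 0 to 2 in each other row. Smad3 is limited to SFTPB, SFTPC and NAPSA, and the SCGB1A1 row is empty.

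The 8 windows span 0.6 Mb, and when pooled they held more TTF-1 peaks per length than the lists as a whole. The SFTPB, SFTPC and NAPSA windows, 60 to 70 kb long, held 3 to 5 TTF-1 peaks per list. Each of the other windows, 50 to 120 kb long, held 0 to 2 per list. The pooled values therefore do not describe every window. TTF-1 had 20.0 peaks per Mb at 1.5 h in the windows, against 12.5 in flanks of the same length on both sides and 7.03 over the whole list. The TTF-1 0 h values were 30.0 peaks per Mb in the windows, 15.8 in the flanks and 10.3 overall. These densities count peaks as called. With peaks within 500 bp merged, the windows held 14 TTF-1 0 h peaks in place of 18, and 11 at 1.5 h in place of 12. Flanks and whole lists were not recounted in that way. Smad3 siTTF-1 had 5.0 peaks per Mb in the windows (3 peaks), fewer than the 9.17 in the flanks (11 peaks) and near the 4.67 overall. Windows widened by 10 kb held 6 of these peaks, so the count depends on where the windows end. Smad3 siControl had 6.67 in the windows, 5.83 in the flanks and 2.95 overall. Of all 75 kb tiles of the genome, 29.1% held a TTF-1 1.5 h peak, 36.7% a TTF-1 0 h peak, 21.0% a Smad3 siTTF-1 peak, 14.6% a Smad3 siControl peak, 3.58% a peak of Smad4 siTTF-1 and 4.69% one of A549 Smad3. At 4.69%, an empty set of 8 windows is no result about A549 Smad3. The tiles include unsequenced stretches, and no test was made against them.

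The 38 peaks formed 20 sites when overlapping peaks of different lists were joined. TTF-1 was present at 18 sites and a Smad factor at 6. At 8 sites TTF-1 was called at both times with no Smad peak, and at 6 sites it was called at 0 h only. Both times of TTF-1 met Smad3 at 4 sites: 2 in the SFTPC window, where Smad3 was called after both siRNAs, and 1 each at SFTPB and NAPSA, where Smad3 was called in siControl cells only. The remaining 2 sites held Smad3 siTTF-1 alone (SFTPB) and Smad4 siTTF-1 alone (SCGB3A2).

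**Figure D2:**
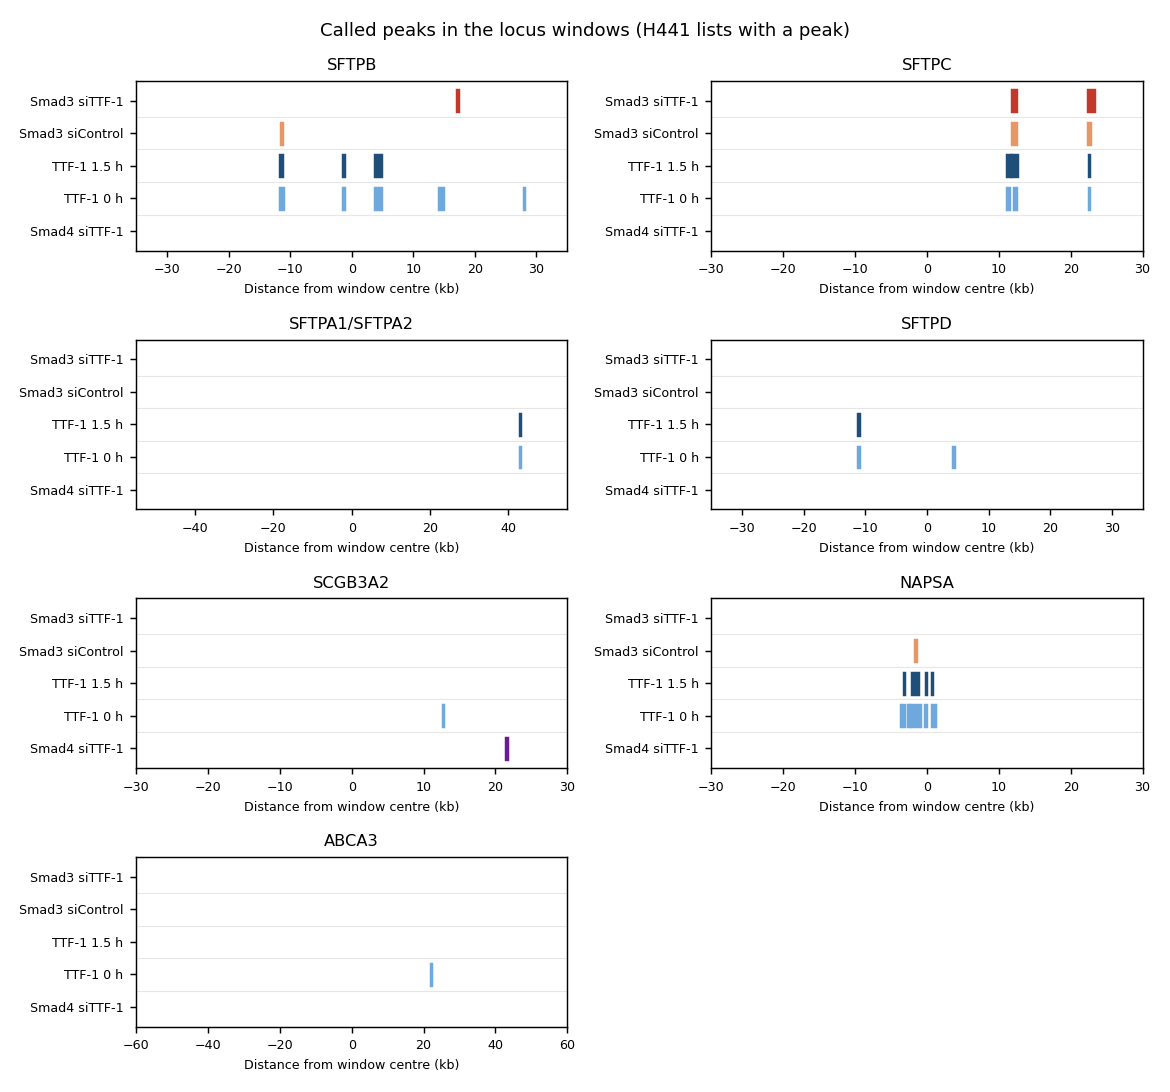
Position of each called peak as distance from the window centre (horizontal axis, kb) in the 7 windows with a peak, with 1 lane per H441 list. NAPSA shows TTF-1 in a compact group with a single Smad3 siControl peak, SFTPC shows Smad3 in both siRNA lanes, and SFTPB shows Smad3 at a different place in each lane.

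The SFTPB window (chromosome 2, 85710001 to 85780000) held 10 peaks at 6 sites. The gene encodes the hydrophobic protein without which lamellar bodies and surfactant film do not form normally. TTF-1 was called at both times at 3 sites: 85733251 to 85733999, 85743501 to 85743949 and 85748601 to 85749849. The last of these had the same borders and a width of 1249 bp at 1.5 h and at 0 h, and stood at number 3824 of the 1.5 h list and 3343 of the 0 h list. At 0 h only, TTF-1 was also called at 85759001 to 85759999 (number 18553) and at 85772751 to 85773199 (number 24073). These 2 stood later in the 0 h list than any of the 3 shared SFTPB sites.

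Smad3 was called in the SFTPB window once per siRNA, at places 28051 bp apart. After siTTF-1 the peak lay at 85761901 to 85762349, at number 9692 of 14145, and had no TTF-1 peak; the nearest was 1901 bp away at 0 h and 12051 bp away at 1.5 h. After siControl it lay at 85733351 to 85733849, at number 8082 of 8941, inside the TTF-1 peaks numbered 1873 at 1.5 h and 2479 at 0 h. A late Smad3 peak thus lay within an early TTF-1 peak. The peak number runs from 1 to the length of each list; the labels do not define it, and numbers were read only within a list. Of siControl peaks in the same last of 5 equal strata by number, 36.3% were no longer called after siTTF-1. Of siTTF-1 peaks in the fourth stratum, which holds number 9692, 69.8% had no siControl peak. Among all 6944 siTTF-1 peaks without a siControl peak, 62.5% had no TTF-1 0 h peak, so the SFTPB peak belongs to the more frequent kind.

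The NAPSA window (chromosome 19, 55530001 to 55590000) held 10 peaks at 5 sites, all within 4999 bp. TTF-1 was called at 4 of the 5 sites at 1.5 h and at all 5 at 0 h. In the whole 0 h list as called, 2.99% of 75 kb tiles held at least 5 peaks, and the SFTPB window also held 5. Merging peaks within 500 bp closes the NAPSA gaps of 251, 101 and 451 bp. The NAPSA count of 5 at 0 h thus depends on how the list divides this stretch. The share of tiles was not recomputed with merged peaks. The middle site, 55557701 to 55559199, was the earliest of all members in both TTF-1 lists, with a 1099 bp peak at number 709 at 1.5 h and a 1499 bp peak at number 505 at 0 h. The other NAPSA TTF-1 peaks were 299 to 349 bp wide at 1.5 h and 349 to 799 bp wide at 0 h. The gaps between neighbouring sites were 101 to 501 bp.

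No Smad3 peak was called in the NAPSA window after siTTF-1; the nearest lay 147401 bp from the siControl peak. In siControl cells Smad3 was called at 55558151 to 55558549, 399 bp wide, inside the middle TTF-1 site. It was number 2280 of 8941, in the second stratum of the list, and 9.9% of the peaks of that stratum were no longer called after siTTF-1. The nearest A549 peak was 999151 bp from it and the nearest Smad4 siTTF-1 peak 1111651 bp.

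The SFTPC window (chromosome 8, 22040001 to 22100000) held 10 peaks at 3 sites. SFTPC encodes SP-C and is a defining marker gene of alveolar type II cells. It was the locus with overlapping Smad3 peaks under both siRNAs. At 22081701 to 22082599, Smad3 had a 799 bp peak (number 5869) after siTTF-1 and a 749 bp peak (number 8005) after siControl. At 22092251 to 22093349 it had a 1099 bp peak (number 2014) after siTTF-1 and a 499 bp peak (number 3501) after siControl. Both siTTF-1 peaks were thus wider than their siControl peaks, as were 52.2% of the 7201 siTTF-1 peaks shared between the lists, while 32.3% were narrower. TTF-1 overlapped both sites at both times, at numbers 16954 and 14092 of 21291 at 1.5 h and 27766 and 23179 of 31083 at 0 h.

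A TTF-1 site without Smad3, at 22080951 to 22081649, lay 51 bp from the first of these. TTF-1 stood there at number 7292 at 1.5 h and 18268 at 0 h, earlier in each list than at the Smad3 sites beside it. All peaks of this window lay in its upper part, and in the RefSeq order the next protein-coding gene on that side is BMP1, which encodes a procollagen-processing protease. Gene positions on hg18 were not used here, so these peaks belong to the window and not to SFTPC itself.

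Across the windows, 2 of the 4 siControl Smad3 peaks were called again after siTTF-1, a share of 50% (exact Clopper-Pearson 95% interval 6.76 to 93.2), against 80.8% of the whole list. The interval holds the whole-list value. Of the 3 siTTF-1 Smad3 peaks, 1 had no siControl peak (33.3%, 0.84 to 90.6), against 49.1% of the whole list. All 4 siControl peaks had TTF-1 at 1.5 h (100%, 39.8 to 100), against 82.2%, and 2 of the 3 siTTF-1 peaks had a TTF-1 0 h peak (66.7%, 9.43 to 99.2), against 62.5%. The 4 siControl peaks also all had TTF-1 at 0 h, against 87.7% of the list, and the same 2 of 3 siTTF-1 peaks had TTF-1 at 1.5 h, against 54.1%. When overlap was set as centres within 200 bp, 1 of the 4 siControl peaks was called again (25.0%), 2 of the 3 siTTF-1 peaks lacked a siControl partner (66.7%) and 1 of the 3 had TTF-1 0 h (33.3%). With only the first 50% of each list by peak number, 1 of 2 siControl peaks had TTF-1 at 1.5 h (50%). With 4 and 3 peaks these shares set the loci apart from the lists in no case.

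The SFTPB and NAPSA Smad3 peaks that were not called after siTTF-1 lay in TTF-1 1.5 h peaks of the first stratum of that list, and the 2 SFTPC peaks that were called again lay in TTF-1 peaks of the fourth stratum. In the whole siControl list, 27.7% of the 2881 Smad3 peaks on first-stratum TTF-1 peaks were no longer called, against 11.7% of the 837 on fourth-stratum TTF-1 peaks. Only these strata were compared, because the 4 locus peaks lay in them. The share no longer called also varied with the place of the Smad3 peak itself, from 4.02% in the first stratum of the siControl list to 36.3% in the last. A link between loss and the TTF-1 peak was not tested. The authors' deposited subset of siControl peaks without a siTTF-1 peak held 1718 peaks, and that of siTTF-1 peaks with TTF-1 held 8847. The same overlaps counted here gave the same numbers, so the authors' classes are no separate evidence. The SFTPB and NAPSA siControl peaks stood in the first subset and the 2 SFTPC siTTF-1 peaks in the second. The SFTPB siTTF-1 peak stood in the subset without TTF-1.

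**Figure D3:**
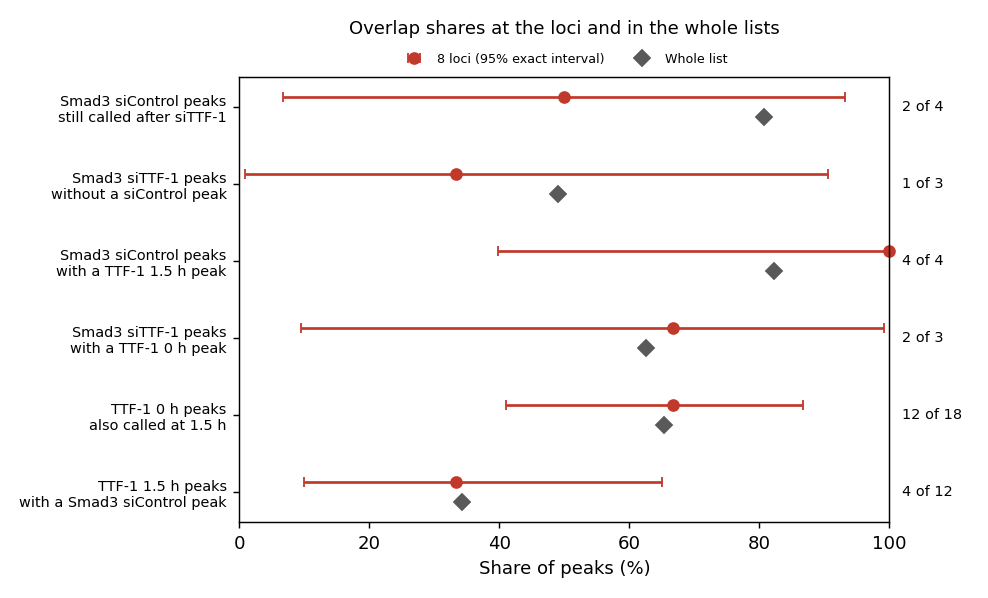
Share of peaks (horizontal axis, %) that overlap, or for the second row lack, a peak of the named list, for the 8 loci (circles, bars are exact 95% intervals of counting error) and for the whole list (diamonds). Counts at the loci are on the right; every interval holds the whole-list value.

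Seen from TTF-1, Smad3 siControl peaks lay at 4 of the 12 TTF-1 1.5 h peaks (33.3%, 9.92 to 65.1), against 34.3% of the whole list. With only the first 50% of each list by peak number, the share was 1 of 7 (14.3%). Smad3 siTTF-1 peaks lay at 2 of the 12 (16.7%, 2.09 to 48.4), against 35.9% of the whole list. In the first stratum of the 1.5 h list the loci had 3 peaks, 2 at SFTPB and 1 at NAPSA. Smad3 was called at 2 of these 3 in siControl cells and at none in siTTF-1 cells, against 65.8% and 50.6% of the whole stratum. The peak of the 3 without Smad3 was the 1249 bp SFTPB site. In the fourth stratum, 2 of 5 locus peaks had Smad3 after siTTF-1, against 28.9% of the stratum, and the same 2 SFTPC peaks had it after siControl, against 19.7%.

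The collectin loci had TTF-1 without Smad3. In the SFTPA1 and SFTPA2 window (chromosome 10, 81280001 to 81390000) the single site was 81377651 to 81378199, where TTF-1 stood at number 9705 at 1.5 h and 2436 at 0 h. It stood in the third stratum at 1.5 h and in the first stratum at 0 h. The nearest Smad3 peak of either siRNA lay about 345 kb beyond the window. In the SFTPD window (chromosome 10, 81660001 to 81730000), TTF-1 was called at both times at 81683601 to 81684199, at number 13105 at 1.5 h and 16200 at 0 h. A second SFTPD peak, at 81699001 to 81699499 (number 12831), was called at 0 h only although it stood earlier in the 0 h list than the shared site. A site with peaks of TTF-1 at both times, Smad3 under both siRNAs and Smad4 siTTF-1 lay just outside the SFTPD window, beginning 4.55 kb beyond its edge.

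The transporter and the secretoglobins had few peaks, as did the SFTPA1 and SFTPA2 window, which held 2 at 1 site. The ABCA3 window (chromosome 16, 2240001 to 2360000), the longest at 120 kb, held 1 peak, TTF-1 at 0 h at 2321651 to 2322249 (number 25051). No TTF-1 1.5 h peak lay closer than 206 kb to the window. The SCGB3A2 window (chromosome 5, 147210001 to 147270000) held a TTF-1 0 h peak at 147252501 to 147252899 (number 26430) and, 8501 bp away, the Smad4 siTTF-1 peak at 147261401 to 147261699 (number 395 of 1605). The Smad4 peak overlapped no Smad3 and no TTF-1 peak, and its nearest Smad3 siTTF-1 peak was 65451 bp away. In the whole Smad4 siTTF-1 list, 80.5% of peaks overlapped a Smad3 siTTF-1 peak, and 17.8% overlapped neither that list nor TTF-1 0 h. Around the empty SCGB1A1 window (chromosome 11, 61920001 to 61970000), peaks of Smad3 siTTF-1 and of TTF-1 at both times began 26.5 kb away, and the nearest Smad3 siControl peak lay 99.8 kb away.

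TTF-1 was called at the same places at both times for most of these sites. All 12 TTF-1 1.5 h peaks overlapped a 0 h peak (100%, 73.5 to 100), against 95.8% of the 1.5 h list. Of the 18 peaks at 0 h, 12 were called at 1.5 h (66.7%, 41.0 to 86.7), against 65.3% of the 0 h list, so the loci stood near the background. The 0 h list is the longer, with 31083 peaks against 21291. Shortened to the length of the 1.5 h list by peak number, it kept 11 locus peaks, of which 9 were called at 1.5 h (81.8%). That cut removes late peaks, and of the last stratum of the whole 0 h list only 16.7% were called again. The share of 81.8% also lies within the interval above. Whether list length accounts for the peaks called at 0 h only was not tested. The 6 sites called at 0 h only were 2 at SFTPB and 1 each at SFTPD, NAPSA, SCGB3A2 and ABCA3. They were 399 to 999 bp wide (median 474) and stood at numbers 12831 to 26430 of 31083. The 12 shared 0 h peaks were 349 to 1499 bp wide (median 599) and stood at numbers 505 to 27766, so the 2 sets overlapped. In the first stratum of the 0 h list all 4 locus peaks were called again, as were 6215 of the 6217 peaks of that stratum. In the last stratum 2 of 4 were called again, at SFTPC and NAPSA, against 16.7%.

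**Figure D4:**
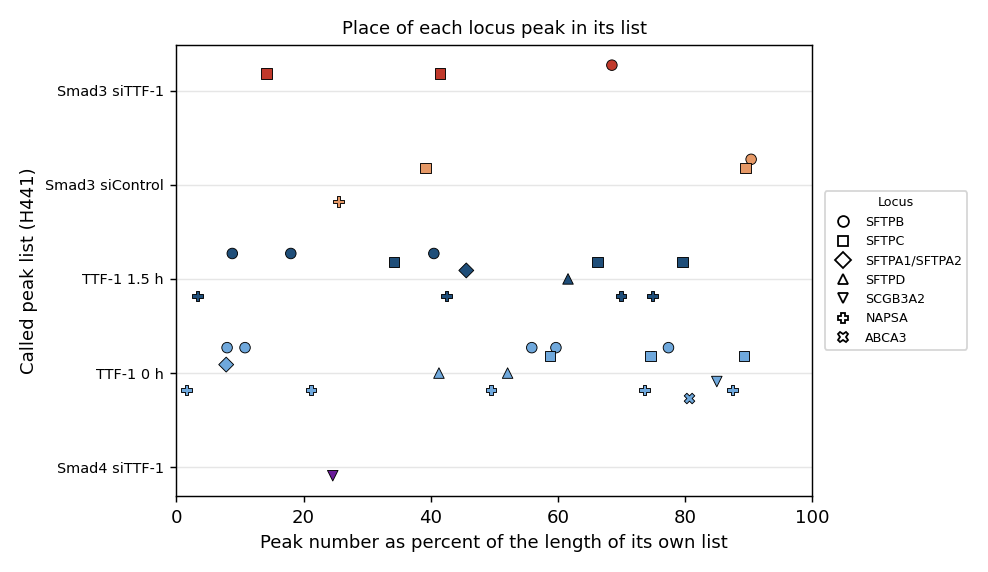
Peak number of each member as a percentage of the length of its own list (horizontal axis), by list (rows) and locus (symbols); a low value is an early peak. The earliest TTF-1 peaks are at NAPSA, SFTPB and, at 0 h, SFTPA1/SFTPA2, and the Smad3 siControl peaks lie between 25.5% and 90.4%.

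Among the 12 TTF-1 sites shared between the times, the 1.5 h peak was narrower than the 0 h peak at 7, wider at 4 and equal at 1. Over the whole list 54.0% of shared 1.5 h peaks were narrower and 25.9% wider. All 4 shared NAPSA peaks were narrower at 1.5 h: 1099 against 1499 bp, 299 against 349 bp, 349 against 799 bp and 299 against 649 bp. The 4 that were wider at 1.5 h were 2 at SFTPC, 1 at SFTPB and 1 at SFTPD. The largest gain was at the SFTPC Smad3 site, with 899 bp at 1.5 h and 499 bp at 0 h. These widths come from 1 library per time, and library depth is unknown from the lists.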

How the data were processed

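Peak lists were used as deposited, on hg18, per the submitters' processing notes. Peaks were called by the authors on single libraries at the false discovery rate limits in the labels; the labels name neither aligner nor caller. The deposited score was 1000 for every peak and was not used. In all, 1 track line was skipped, and 1 was added to each deposited start. Read depth is unknown, so intervals cover counting error of peaks only.

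Members, windows and comparisons were chosen with earlier results of these data known. All 9 genes were to be named, with every peak in their windows accounted for. Peaks were matched at 1 bp, and shares have exact Clopper-Pearson 95% intervals. No test was made, since each condition had 1 library. Flanks, paired widths, the promoters shown, the capitals on TGANTCA and strata of the peak number were chosen after seeing the data. Tiles of 75 kb, 1 length for all windows, ran from base 1 to the last peak of each chromosome. Promoters came from RefSeq (GRCh38.p14) and were aligned globally. Software was Python 3.11.15 with pandas 2.3.3, NumPy 2.4.6, Biopython 1.88, SciPy 1.17.1 and matplotlib 3.10.9. The overlap code gave the bedtools 2.31.1 count in 8 of 8 trials with moved peaks.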

Additional observations from a re-analysis of the deposited data

How the results depend on the processing

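No paired analysis was possible because each condition had 1 library. Of 190 values recomputed under the alternatives, 169 stayed within the 95% interval of the value as reported or, for counts, within 1.5 times it, and 21 did not. Many of the 169 had little or no room to move. The Smad4 siControl and A549 Smad3 counts were 0 under every alternative, and leaving out a locus without a peak of a list changes nothing. Intervals from 3 or 4 peaks are wide, so the 169 are no measure of stability. With peaks limited to the wider 50% of each list, the share of Smad3 siControl peaks still called was 100% (1 of 1), the share of Smad3 siTTF-1 peaks with TTF-1 0 h was 0% (0 of 2), and Smad3 siControl, TTF-1 1.5 h and TTF-1 0 h had 1, 5 and 9 peaks. With the first 50% by peak number the share of Smad3 siTTF-1 peaks with TTF-1 0 h was 0% (0 of 2), and the same 3 lists had 2, 7 and 7 peaks. Under that limit 1 of 2 Smad3 siControl peaks had TTF-1 1.5 h (50%, against 100% as reported), and 1 of 7 TTF-1 1.5 h peaks had Smad3 siControl (14.3%, against 33.3%); this second share was 20.0% (1 of 5) with the wider 50%. With at least 50% of a peak covered, 66.7% of Smad3 siTTF-1 peaks had no siControl peak and 33.3% had TTF-1 0 h (2 and 1 of 3). With the longer list shortened to the shorter, the share of Smad3 siTTF-1 peaks without a siControl peak was 0% (0 of 2), since the SFTPB peak at number 9692 was left out. Windows widened by 10 kb held 6 Smad3 siTTF-1 and 2 Smad4 siTTF-1 peaks, and narrowed windows held 0 Smad4 peaks. Windows narrowed by 10 kb also lost the SFTPC site at 22092251. These alternatives keep fewer peaks or other stretches by construction; no other cause was tested.

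With each locus left out in turn, the share of Smad3 siControl peaks still called ranged from 0% (without SFTPC) to 66.7%. The share of Smad3 siTTF-1 peaks without a siControl peak ranged from 0% (without SFTPB) to 100% (without SFTPC), and the share with TTF-1 0 h from 0% (without SFTPC) to 100% (without SFTPB). The share of TTF-1 0 h peaks called at 1.5 h ranged from 60.0% to 70.6%, and the share of TTF-1 1.5 h peaks with Smad3 siControl from 22.2% to 37.5%. Counts ranged from 1 to 3 for Smad3 siTTF-1, 2 to 4 for Smad3 siControl, 8 to 12 for TTF-1 1.5 h, 13 to 18 for TTF-1 0 h and 0 to 1 for Smad4 siTTF-1. All Smad3 shares rest on 3 or 4 peaks, and the lists show no signal below their limits.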

Other observations

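Sites with several factors lay just outside some windows. Within 10 kb of the SFTPC window, a site at 22101251 to 22101799 on chromosome 8 held Smad3 peaks after siTTF-1 (number 751) and siControl (number 1565) and TTF-1 peaks at 1.5 h (number 5663) and 0 h (number 21167). A further Smad3 siTTF-1 peak, number 8975, lay at 22102301 to 22102849. Within 10 kb of the SFTPD window, a site starting at 81734551 on chromosome 10 held Smad3 peaks after siTTF-1 (number 3455) and siControl (number 6837), TTF-1 peaks at 1.5 h (number 10730) and 0 h (number 13016), and a Smad4 siTTF-1 peak (number 855). Within 10 kb of the SFTPB window, 2 TTF-1 sites were called at both times, the first at number 1835 at 1.5 h and 1772 at 0 h, with no Smad peak. Whether any of these sites acts on the surfactant genes was not tested.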
